A study of Mus musculus with 2 samples.

Results

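Replication-dependent histone genes were followed in single melanocytes of mouse back skin, in early anagen and in the mature hair bulb. Members were all gene symbols of the deposited gene list that begin with Hist1h, Hist2h, Hist3h or Hist4h and had at least 1 UMI (unique molecular identifier, 1 counted transcript) in either library. Of 67 such symbols among 32285 genes, 65 qualified, and Hist1h2bq and Hist1h2ba had no UMI. The members were 6 genes of the linker histone H1, 18 of H2A, 16 of H2B, 12 of H3 and 13 of H4. Levels are given in CPM, the UMIs of a gene divided by all UMIs of the same cells and multiplied by 1000000. The 21 members with at least 10 CPM in either library are described below, and the other 44 are given by their range.

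Replication-dependent histone genes supply the H2A, H2B, H3 and H4 proteins of the nucleosome core, and the H1 linkers between nucleosomes, while DNA is copied. Their genes are short, mostly lack introns and lie in clusters, and their mRNAs end in a conserved stem-loop that is bound by Slbp in place of a poly(A) tail. The mRNAs build up in S phase and are degraded when replication ends. Some members are also known to give polyadenylated mRNAs outside S phase, while variants such as H2afz and H3f3a are transcribed from separate genes throughout the cell cycle. In the skin, McSCs rest in the hair follicle (HF), divide when anagen begins and give rise to the pigment-producing melanocytes of the hair bulb.

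The study prepared 2 libraries by 10x Genomics 3′ scRNA-seq, 1 per condition, each from 4 pooled Dct-rtTA; tetO-H2B-GFP mice. The early-anagen library (cell state given as Activated) came from back skin 4 days after depilation of 8-week-old mice, when HFs are in anagen II. The bulb library (cell state given as Differentiated) came from dissected anagen VI hair bulbs of 5-week-old mice. All mice received doxycycline food for 4 days, and GFP+ cells were sorted. In these mice the melanocyte promoter Dct drives the transactivator rtTA, which turns on a fusion of histone H2B and GFP when doxycycline is given. Reads of that H2B fusion could be counted with mouse H2B genes, and this was not tested. The libraries were made with different kits (v3 for early anagen, v2 for the bulb). Cells were freed with trypsin in early anagen and with collagenase and dispase in the bulb. Depilation is stated only for the early-anagen mice. Condition, depilation, age of the mice, cell isolation, kit and library therefore cannot be told apart. A single library stood for each condition, and the differences between them are given without a test.

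Melanocytes were barcodes with at least 1 UMI of Dct, fewer than 3 UMIs of Krt10 and Krt14 together, less than 5% mitochondrial UMIs and more than 10000 UMIs (early anagen) or 5000 UMIs (bulb). This left 2785 of 11010 barcodes with a median of 24528 UMIs in early anagen (range 10001 to 99743) and 3734 of 4327 with a median of 14286.5 in the bulb (range 5003 to 46256). The libraries shared 1 barcode, which was not among the selected cells. All 9 melanocyte markers were found in most cells of each library, at 75.5% of cells or more. Dct is among them and was required by the selection, which also limited Krt10 and Krt14 among the keratinocyte markers. Summed keratinocyte markers (9 genes) reached 36.5 CPM in early anagen and 66.3 CPM in the bulb, where 2 of them were at 0, and no fibroblast, endothelial or immune marker passed 10 CPM in either library. Of the 4 Schwann cell markers, 1 was found in most cells of each library, and their sum was 199 CPM in early anagen and 441 CPM in the bulb. No doublet caller was run. Intervals of levels and ratios in the text are exact 95% intervals that cover counting error only, not the spread between cells or between mice. Among cells thinned to 5000 UMIs, the variance of histone UMIs was 34.5 times the mean in early anagen and 1.75 times in the bulb. Intervals that lie apart therefore do not show a difference beyond the spread between cells.

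The members lay in 4 places of the GRCm38 genome. The Hist1 group comprised 52 members between chr13:21715763-23934851, of which 48 have a single exon in GENCODE M21. The Hist2 group held 10 members within chr3:96219865-96270132, the Hist3 group 2 members on chromosome 11, and the Hist4 group a single gene, Hist4h4, on chromosome 6. The 3′ stem-loop is a stem of 6 bases on either side of a loop of 4 bases. It was searched in the longest annotated coding transcript of each gene and was present in 45 of 65 members. The commonest form was shared by 25 genes from H1, H2A, H2B and H3, the next by 7 H4 genes, and the form after that by 6 genes that include Hist1h2bb and Hist1h3c. The element is shown with the loop in capitals. Its presence in an annotated transcript does not separate these mRNAs from polyadenylated ones. Of the members that hold it, 23 were annotated for more than 100 bases past it, as described below.
25 members: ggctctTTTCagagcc
7 H4 members: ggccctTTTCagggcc
6 members: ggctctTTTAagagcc
Of the 20 members without the stem-loop, 16 were annotated with a transcript that ends within 50 bases of the stop codon, 14 of them within 2 bases. Hist1h1a has 48 and Hist2h3b has 37 annotated bases after it, while the stem-loops found began 21 to 58 bases after the stop codon. The exceptions were 4 H2B genes, Hist1h2bc, Hist1h2bp, Hist1h2br and Hist2h2be. Of these, Hist1h2bp has 2 and Hist1h2br 3 annotated transcripts, and their shorter transcripts were not searched.

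Promoters of 4 members are shown: Hist1h1b, Hist1h2ap and Hist2h2ac, which were over 16-fold higher in dividing early-anagen cells, and Hist3h2a, which was within 2-fold, as described below. They span 250 bases before to 50 bases after the transcription start (RefSeq, GRCm38.p6), and 59 of 65 members could be matched. Capitals mark the TATA box (TATAAA), the CCAAT box, the octamer (ATTTGCAT) and the H1 box (AAACACA), each searched on both strands.
Hist1h1b, chr13:21780576-21780875, minus strand: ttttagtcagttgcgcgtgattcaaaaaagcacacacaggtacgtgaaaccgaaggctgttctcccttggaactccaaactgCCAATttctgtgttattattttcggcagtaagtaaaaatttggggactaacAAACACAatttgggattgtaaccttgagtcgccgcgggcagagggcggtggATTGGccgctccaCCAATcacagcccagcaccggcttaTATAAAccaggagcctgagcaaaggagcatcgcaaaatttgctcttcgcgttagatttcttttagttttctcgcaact
Hist1h2ap, chr13:21833426-21833725, minus strand: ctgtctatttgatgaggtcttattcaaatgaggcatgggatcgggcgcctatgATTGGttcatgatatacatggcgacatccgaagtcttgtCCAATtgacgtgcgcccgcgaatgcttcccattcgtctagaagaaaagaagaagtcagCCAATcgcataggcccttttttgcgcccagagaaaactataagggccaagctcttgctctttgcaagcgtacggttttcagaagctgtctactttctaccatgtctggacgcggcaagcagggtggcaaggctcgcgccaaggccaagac
Hist2h2ac, chr3:96220831-96221130, minus strand: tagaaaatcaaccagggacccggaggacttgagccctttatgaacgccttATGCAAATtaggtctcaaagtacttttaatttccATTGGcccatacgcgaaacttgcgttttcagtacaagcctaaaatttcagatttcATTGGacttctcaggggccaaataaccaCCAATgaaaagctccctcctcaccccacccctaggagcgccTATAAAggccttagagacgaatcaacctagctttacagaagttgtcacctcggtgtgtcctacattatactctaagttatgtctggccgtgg
Hist3h2a, chr11:58954435-58954734, plus strand: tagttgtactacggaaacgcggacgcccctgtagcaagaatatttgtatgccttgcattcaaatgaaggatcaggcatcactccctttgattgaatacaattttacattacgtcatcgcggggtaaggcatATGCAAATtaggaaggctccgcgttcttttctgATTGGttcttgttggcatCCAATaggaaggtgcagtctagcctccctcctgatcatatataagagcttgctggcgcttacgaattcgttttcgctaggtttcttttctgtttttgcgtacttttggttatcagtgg
TATAAA occurred in 55.9% of the members' promoters and 14.2% of all 27025 promoters. CCAAT occurred in 84.7% against 37.9%, and its distribution followed histone type, since all 5 H1, 18 H2A, 14 H2B and 10 H3 promoters held it but 3 of 12 H4 promoters did. The octamer, bound by Oct factors, occurred in 20.3% of members against 1.75% of all promoters, in 7 H2A and 5 H2B genes. Neighbouring H2A and H2B genes on opposite strands can share promoter DNA, so a site can count for both. The overlapping promoters of Hist1h2ae and Hist1h2bg, for example, both held the octamer. AAACACA occurred in 11.9% against 7.14%, including 4 of 5 H1 promoters. The Hist3h2a promoter held the octamer and CCAAT but no exact TATAAA, and the Hist1h2ap promoter held CCAAT only, so these letters were present both in members that differed between dividing and non-dividing cells and in members that did not.

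In early anagen, histone mRNA accounted for 110063 UMIs, a level of 1454 CPM (1445 to 1462), and in the bulb for 8424 UMIs, a level of 151 CPM (148 to 154). The summed level was thus 9.64-fold lower in bulb melanocytes (log2 ratio -3.27, interval -3.30 to -3.24). Across the 12598 genes with at least 50 UMIs in both libraries together, the median log2 ratio was -0.38, and relative to it the histone total was lower by a log2 ratio of -2.89. The extent differed by histone type. H2A went from 906 CPM in early anagen to 42.9 CPM in the bulb (log2 -4.40, -4.46 to -4.34), H4 from 82.8 to 5.05 CPM (log2 -4.04, -4.21 to -3.86), H3 from 83.4 to 7.34 CPM (log2 -3.51, -3.66 to -3.36) and H1 from 271 to 47.2 CPM (log2 -2.52, -2.58 to -2.46). H2B differed least, with 110 and 48.3 CPM (log2 -1.18, -1.25 to -1.12).

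The genes that made up the total were not the same. In early anagen Hist1h2ap (43738 UMIs), Hist1h2ae (17476 UMIs) and Hist1h1b (12247 UMIs) together made up 66.7% of histone UMIs, whereas in the bulb Hist1h2bc (2488 UMIs), Hist1h1c (2355 UMIs) and Hist3h2a (2057 UMIs) together made up 81.9%. A level of 10 CPM was reached by 20 members in early anagen and by 3 in the bulb, and a level of 1 CPM by 44 and 11. The 44 members under 10 CPM in both libraries ranged from 0 to 9.93 CPM in early anagen (median 1.11, 2 at 0) and from 0 to 4.35 CPM in the bulb (median 0.02, 13 at 0).

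Of 50 members with at least 50 UMIs over both libraries, 43 were more than 2-fold lower in the bulb, against 34.5% of all genes tested, and 34 of them were more than 16-fold lower. A further 4 were more than 2-fold higher in the bulb, against 14.8% of all genes, and 3 lay within 2-fold. The share of all genes more than 16-fold lower is not given here. The members' median log2 ratio was -4.89, with genes at 0 in a library set at the bound that 3 counts allow, against -0.38 for all genes. The 4 genes higher in the bulb were Hist2h3c2 (log2 3.84, 3.22 to 4.52), Hist2h3c1 (log2 3.13, 2.46 to 3.87), Hist3h2a (log2 2.59, 2.44 to 2.74) and Hist1h1c (log2 1.10, 1.003 to 1.19). The Hist2h3c1 and Hist2h3c2 counts are uncertain, since 100% and 62.0% of their 90-base windows are shared with another gene.

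Cells were next divided by their summed UMIs of Mki67 and Top2a, nuclear proteins of cycling cells that are not members. In early anagen 1523 cells had none, 553 had 1 to 4, 291 had 5 to 19 and 418 had 20 or more. In the bulb 3643 cells had none, 48 had 1 to 4 and 43 had 5 or more, of which 3 had 20 or more. Cells with 5 or more are called dividing below and cells with none non-dividing; these are ranges of a count and not cell types, and they move with depth, since the median total was 38818 UMIs in dividing and 19698 UMIs in non-dividing early-anagen cells.

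Histone mRNA in early anagen was concentrated in the cells with the most Mki67 and Top2a. The summed level was 120 CPM in cells without these UMIs, 185 CPM with 1 to 4, 514 CPM with 5 to 19 and 5227 CPM (5194 to 5260) with 20 or more. The last class made up 15.01% of cells and held 89.5% of histone UMIs, while the class without made up 54.7% of cells and held 3.49%. Dividing cells as a whole had 3639 CPM, 30.4-fold more than non-dividing cells (log2 4.92, 4.88 to 4.97). The median log2 ratio of the 11715 genes tested was -0.07.

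**Figure D1:**
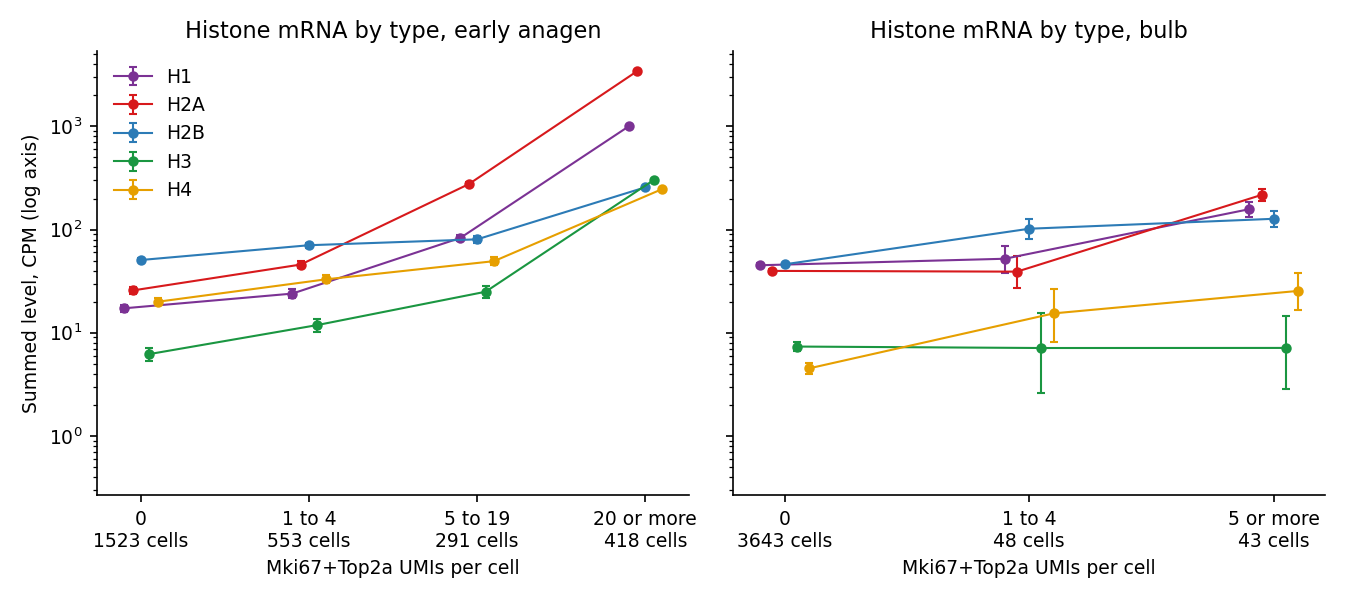
Summed level of each histone type (CPM, log axis) against the Mki67 and Top2a UMIs per cell in the early-anagen library (left) and the bulb library (right), where classes of 5 or more were pooled; bars are exact 95% counting intervals and lines join the classes of a type. In early anagen H2A went from 25.7 CPM in cells without these UMIs to 3422 CPM in cells with 20 or more, whereas H2B went from 50.7 to 257 CPM.

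The composition of histone UMIs differed between dividing and non-dividing early-anagen cells. H2A was 25.7 CPM in non-dividing and 2362 CPM in dividing cells (log2 6.52, 6.42 to 6.62), so that its share of histone UMIs was 21.4% and 64.9%, respectively. H2B was 50.7 and 197 CPM (log2 1.96, 1.88 to 2.04), and its share was 42.3% and 5.43%. Non-dividing cells therefore held more H2B than H2A UMIs and dividing cells the opposite. How well the 3′ kit captures the mRNAs of each type was not tested, so these are shares of UMIs and not of mRNA molecules. H1 was 17.2 and 690 CPM (log2 5.32, 5.20 to 5.45), H3 was 6.21 and 209 CPM (log2 5.07, 4.87 to 5.28), and H4 was 19.96 and 180 CPM (log2 3.18, 3.06 to 3.30). Summed keratinocyte markers were 38.3 CPM in non-dividing and 31.8 CPM in dividing cells; their part in the difference was not tested.

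By gene, 41 of the 46 members with at least 50 UMIs in these cells were more than 2-fold higher in dividing cells, against 6.36% of all genes, and 26 of them were more than 16-fold higher. None was more than 2-fold lower, against 2.83% of all genes. The share of all genes more than 16-fold higher is not given here. The members' median log2 ratio was 4.56. The 5 members within 2-fold were Hist1h2bm (log2 0.94), Hist4h4 (log2 0.90), Hist1h2bf (log2 0.74), Hist3h2a (log2 0.20) and Hist2h2be (log2 -0.11).

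Among the H1 linker genes, Hist1h1b (chr13:21779883-21780625, minus strand) had the most UMIs, with 12247 in early anagen and 70 in the bulb. Its level was 2.96 CPM in non-dividing and 425 CPM in dividing early-anagen cells, and 0.22 and 56.0 CPM in the corresponding bulb cells. It was therefore low in non-dividing cells of both libraries and higher in dividing cells of both, by 144-fold in early anagen (log2 7.17, 6.87 to 7.47) and 252-fold in the bulb (log2 7.98, 7.06 to 9.01, from 55 and 12 UMIs). Hist1h1e (chr13:23620629-23622558, minus strand) was 5.24 and 151 CPM in early anagen (log2 4.85, 4.63 to 5.08) and 3.13 and 32.6 CPM in the bulb (log2 3.38, 2.79 to 3.93). Hist1h1a was 0.50 and 50.8 CPM in early anagen (log2 6.67, 5.96 to 7.48) and had 3 UMIs in the bulb.

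Hist1h1c (chr13:23738808-23740367, plus strand) differed from the other H1 genes. It had 255 UMIs in non-dividing and 1052 in dividing early-anagen cells, levels of 7.95 and 37.0 CPM (log2 2.22, 2.02 to 2.42). In the bulb it was 41.6 CPM in non-dividing and 67.2 CPM in dividing cells (log2 0.69, 0.31 to 1.04); of its 66 UMIs in dividing bulb cells, 27 came from 3 cells, and without the 5% of cells with the most UMIs the log2 ratio was -0.31. Its level in non-dividing bulb cells was therefore above that in dividing early-anagen cells, and it alone made up most H1 UMIs of the bulb, 2355 of 2637. With every cell thinned to 5000 UMIs, Hist1h1c was found in 4.01% of non-dividing early-anagen cells and 15.4% of non-dividing bulb cells (26.2% and 32.4% of all cells of each library unthinned).

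Among H2A genes, Hist1h2ap (chr13:21833026-21833507, minus strand) had the most UMIs of any member in the early-anagen library. Its level was 5.62 CPM in non-dividing and 1523 CPM in dividing cells (log2 8.08, 7.87 to 8.30). In the bulb, 160 of its 182 UMIs came from the 43 dividing cells, with 163 CPM there and 0.31 CPM in the 3643 non-dividing cells (log2 9.02, 8.29 to 9.83). It was thus the member with the greatest ratio in both libraries among those tested. Since 92.4% of its 90-base windows are shared with Hist1h2ao, which had 5 UMIs, the split between this pair is uncertain.

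Hist1h2ae (chr13:23570517-23571220, minus strand) was 5.18 CPM in non-dividing and 603 CPM in dividing early-anagen cells (log2 6.86, 6.64 to 7.09). Bulb melanocytes had 31 UMIs of it, 16 in non-dividing and 14 in dividing cells. Hist1h2ab (chr13:23751126-23751598, plus strand) was 0.62 and 121 CPM in early anagen (log2 7.60, 6.97 to 8.31), and its 1 UMI in the bulb against 3475 in early anagen gave a log2 ratio of -11.32 with a wide interval (-16.63 to -8.85). Hist2h2ac was 2.06 and 53.2 CPM (log2 4.69, 4.33 to 5.07), and Hist2h2aa1 was 4.55 and 20.4 CPM (log2 2.16, 1.90 to 2.44); 88.5% of the windows of Hist2h2aa1 are shared with another gene.

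Hist3h2a (chr11:58954685-58956830, plus strand), an H2A gene outside the large clusters, did not follow this pattern. It was 6.15 CPM in non-dividing and 7.04 CPM in dividing early-anagen cells (197 and 200 UMIs), and 37.1 and 28.5 CPM in the corresponding bulb cells (2005 and 28 UMIs). Neither interval of the ratio left 0, with log2 0.20 (-0.10 to 0.49) in early anagen and log2 -0.38 (-0.97 to 0.16) in the bulb. The bulb levels were above the early-anagen levels in both classes. Hist3h2a was found in 3.81% of non-dividing and 3.81% of dividing early-anagen cells thinned to 5000 UMIs, and in 15.95% and 20.9% of the corresponding bulb cells. It made up 2057 of the 2395 H2A UMIs of the bulb.

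The H2B genes were not uniform. Hist1h2bc (chr13:23684199-23692908, plus strand, 2 exons) was 10.2 CPM in non-dividing and 47.3 CPM in dividing early-anagen cells (log2 2.22, 2.04 to 2.40), and 42.3 and 119 CPM in the bulb (log2 1.49, 1.21 to 1.76). It was therefore higher in dividing cells of both libraries while remaining the member with the most UMIs in non-dividing bulb cells. Of its 117 UMIs in dividing bulb cells, 77 came from the 40 cells with 5 to 19 Mki67 and Top2a UMIs, where it was 87.3 CPM. The rest came from 3 cells. Hist1h2bb (chr13:23746734-23747241, plus strand) was 17.4 and 37.0 CPM in early anagen (log2 1.09, 0.94 to 1.24) but had 54 UMIs and 1 UMI in the bulb (log2 0.03, -5.30 to 2.57). Hist1h2bm (chr13:21722044-21722567, plus strand) was 14.01 and 26.9 CPM in early anagen (log2 0.94, 0.77 to 1.11) and had 65 and 2 UMIs in the bulb.

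Hist1h2bb and Hist1h2bm were thus present in non-dividing early-anagen cells at higher levels than Hist1h2ap (5.62 CPM), which exceeded both in dividing cells. After thinning, Hist1h2bb was found in 7.81% and Hist1h2bm in 6.30% of non-dividing early-anagen cells, against 0.55% and 0.85% of non-dividing bulb cells. Hist1h2bj, in contrast, was 0.59 and 25.8 CPM in early anagen (log2 5.44, 4.79 to 6.18) and had 1 UMI in the bulb.

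The H3 genes were low in non-dividing cells of both libraries. Hist1h3c (chr13:23744973-23745602, minus strand) was 1.12 CPM in non-dividing and 92.1 CPM in dividing early-anagen cells (log2 6.36, 5.88 to 6.87), with 2 UMIs in the bulb. Hist1h3f was 1.37 and 33.7 CPM (log2 4.62, 4.18 to 5.09), Hist1h3b was 0.34 and 30.6 CPM (log2 6.48, 5.63 to 7.49) and Hist1h3e was 1.12 and 27.9 CPM (log2 4.64, 4.15 to 5.16), with 3, 4 and 5 UMIs in the bulb. Of the 12 H3 members, 9 had enough UMIs to be tested in early anagen. All 9 were more than 2-fold higher in dividing cells, against 6.36% of all genes. Those not tested include Hist2h3c2, with 10 UMIs in non-dividing and 9 in dividing cells (log2 0.02, -1.45 to 1.48). Hist2h3c1, also not tested, had 5 and 13 UMIs. The remaining H3 mRNA of the bulb was largely Hist2h3c2 (243 UMIs) and Hist2h3c1 (136 UMIs), of 410 H3 UMIs in all.

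Among H4 genes, Hist1h4d (chr13:23581598-23582735, plus strand) was 3.31 CPM in non-dividing and 74.9 CPM in dividing early-anagen cells (log2 4.50, 4.22 to 4.80). Hist1h4i (chr13:22040636-22041362, minus strand) was 8.27 and 43.7 CPM (log2 2.40, 2.21 to 2.60), and in the bulb it was 1.68 and 14.3 CPM (log2 3.08, 2.15 to 3.90). Hist1h4h was 4.71 and 40.4 CPM in early anagen (log2 3.10, 2.85 to 3.35). Of 6 H4 genes tested, 5 were more than 2-fold higher in dividing cells, against 6.36% of all genes. The exception was Hist4h4, with 0.90 and 1.69 CPM (log2 0.90, 0.21 to 1.62).

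**Figure D2:**
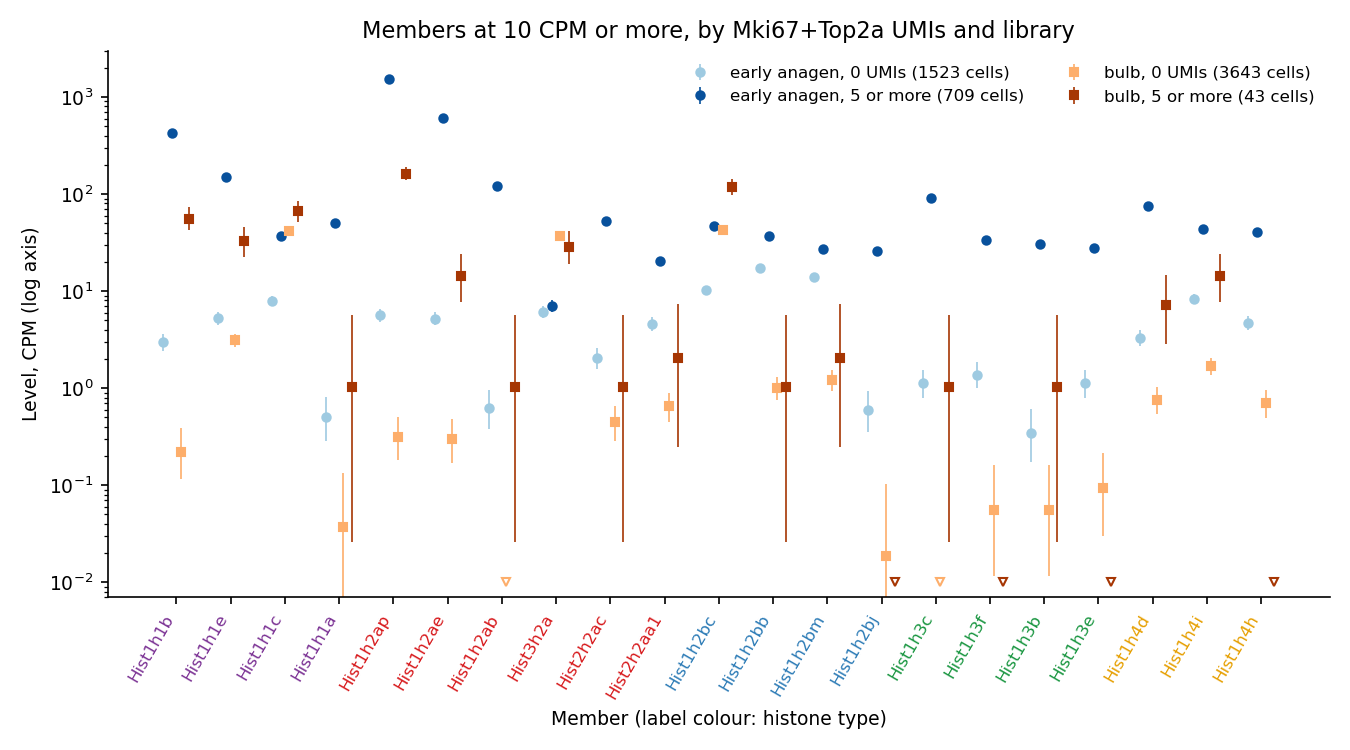
Level (CPM, log axis) of the 21 members with at least 10 CPM in either library, in cells with 0 or with 5 or more Mki67 and Top2a UMIs of each library; bars are exact 95% counting intervals, open triangles at the foot stand for 0 UMIs, and label colours give the histone type. Most early-anagen points for dividing cells lie far above those for non-dividing cells, whereas the points of Hist3h2a lie at 6.15 and 7.04 CPM in early anagen and at 37.1 and 28.5 CPM in the bulb.

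The same contrast within the bulb rested on 43 dividing and 3643 non-dividing cells. The histone total was 534 and 143 CPM, 3.74-fold apart (log2 1.90, 1.77 to 2.03). Of the 525 histone UMIs in dividing cells, 110 came from 3 cells, with 82 in a single cell. The other 40 dividing cells had 471 CPM. H4 (log2 2.49), H2A (log2 2.45), H1 (log2 1.81) and H2B (log2 1.47) were higher in dividing cells, while H3, with 7 UMIs there, gave log2 -0.04 (-1.37 to 1.01). Of 12 members tested, 6 were more than 2-fold higher, against 12.0% of all genes, namely Hist1h2ap, Hist1h1b, Hist1h1e, Hist1h4i, Hist1h2bc and Hist1h2ac. None was more than 2-fold lower, against 7.65% of all genes. The place of Hist1h2ac among the higher members rested on 2 UMIs in dividing and 48 UMIs in non-dividing cells (2.04 and 0.89 CPM), too few to settle it. Summed keratinocyte markers were 65.5 CPM in non-dividing and 15.3 CPM in dividing bulb cells, and the median depth was 14199 and 22068 UMIs; the part of either in the difference was not tested.

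The share of dividing cells differed between libraries (25.5% and 1.15% of cells), so the libraries were also compared within classes, a setting chosen after seeing the data. Among cells without Mki67 or Top2a UMIs, the histone total was 143 CPM in the bulb and 120 CPM in early anagen, a log2 ratio of 0.25 (0.20 to 0.31) in the opposite direction to that of all cells. H1 (log2 1.39) and H2A (log2 0.63) were higher in the bulb, H2B (log2 -0.14) and H3 (log2 0.24, -0.01 to 0.50) differed little, and H4 was lower (log2 -2.15). The median log2 ratio of all genes was -0.30 in these cells.

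The near equality of the totals covered opposite differences between genes. Of 20 members tested in non-dividing cells, 5 were more than 2-fold higher in the bulb, against 15.5% of all genes, namely Hist2h3c1 (log2 3.98), Hist2h3c2 (log2 3.82), Hist3h2a (log2 2.59), Hist1h1c (log2 2.39) and Hist1h2bc (log2 2.06). A further 12 were more than 2-fold lower, against 31.4% of all genes, among them Hist1h2ap (log2 -4.16), Hist1h2ae (log2 -4.13), Hist1h2bb (log2 -4.12) and Hist1h1b (log2 -3.74). In non-dividing early-anagen cells these named genes were at 5.62, 5.18, 17.4 and 2.96 CPM, respectively. Free RNA in droplets could add to such low levels, and this was not tested. The non-dividing classes were not matched in every respect. The replication genes used below summed to 278 CPM in the bulb and 429 CPM in early anagen, and the mitotic genes to 34.6 and 52.3 CPM. Single non-dividing cells held up to 55 histone UMIs in the bulb and 130 in early anagen. Whether cells in S phase remained in these classes was not tested.

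Among cells with 5 to 19 Mki67 and Top2a UMIs (40 in the bulb, 291 in early anagen), the totals were 471 and 514 CPM (log2 -0.13, -0.27 to 0.02). Of 15 members tested, 3 were more than 2-fold higher in the bulb, against 13.7% of all genes, namely Hist3h2a (log2 3.05), Hist1h2bc (log2 1.38) and Hist1h1c (log2 1.30). A further 6 were more than 2-fold lower, against 25.3% of all genes, including Hist1h2ae (log2 -2.01, from 13 bulb UMIs). The others, Hist2h2ac, Hist1h2ab, Hist1h3c, Hist1h2bb and Hist1h2bm, had 1 or 2 bulb UMIs and were tested through their early-anagen counts. The intervals of Hist2h2ac (-7.70 to 0.17) and Hist1h2ab (-7.62 to 0.25) covered both directions. The cells of this class were not matched in every respect, since Mki67 and Top2a summed to 492 CPM in the bulb and 290 CPM in early anagen. The replication genes used below summed to 4152 CPM in the bulb and 2167 CPM in early anagen, and the mitotic genes to 3552 and 1031 CPM. Over all dividing cells the totals were 534 and 3639 CPM (log2 -2.77).

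The position of histone mRNA within the cell cycle was described in the 709 dividing early-anagen cells, ordered by the share of mitotic genes in their summed mitotic and replication UMIs (18 genes each, none of them a member) and cut into 5 equal parts. The replication genes were 3051, 3388, 2548, 1291 and 674 CPM in parts 1 to 5, and the mitotic genes 284, 994, 2457, 3944 and 6242 CPM. The histone total was 365, 4539, 7170, 4152 and 1394 CPM. Histone mRNA was thus low in the part with the smallest mitotic share, highest in the middle part and lower again in the part with the largest share. All 5 types were highest in the middle part, though for H2B the interval overlapped that of part 4, with H2A at 199, 3060, 4729, 2653 and 781 CPM, and H2B at 41.0, 193, 280, 264 and 192 CPM.

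Cells within a part were not uniform. The median cell had 80.3, 4224, 6811, 2607 and 373 CPM of histone mRNA in parts 1 to 5, and 3, 63, 104, 51 and 13 of the 141 or 142 cells of each part were above 5000 CPM. Of 44 members with at least 50 UMIs in these cells, 34 had their highest value in the middle part. The share of all genes highest there is not given here. For 16 of the 34 members the counting interval of the middle part lay above that of the next highest part. Such intervals leave out the spread between cells, which ran from 70.3 to 19259 CPM of histone mRNA in part 3. The 4 members with their highest value in part 2 (Hist1h2bp, Hist1h3a, Hist1h3i and Hist1h4a) and the 3 in part 4 (Hist1h2bf, Hist1h3d and Hist2h3b) had intervals that overlapped the next part, so their place is not settled by these counts. Of the 3 in part 5, Hist1h2bc was 8.35 CPM in part 1 and 87.3 CPM in part 5, and Hist3h2a was 1.14 and 14.9 CPM, both with intervals above those of part 4. Hist2h2be was 2.66 and 6.23 CPM, with overlapping intervals (35 UMIs in part 5 and 35 in part 3).

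**Figure D3:**
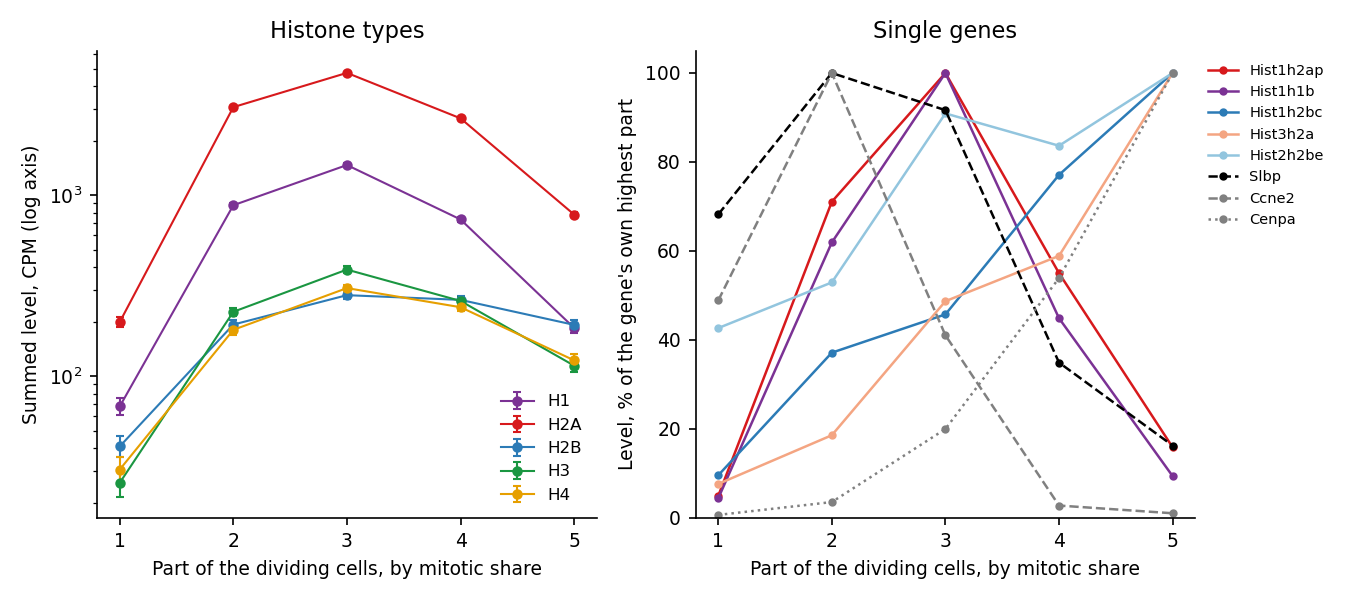
Left, summed level of each histone type (CPM, log axis, bars are exact 95% counting intervals) in 5 equal parts of the 709 dividing early-anagen cells ordered by mitotic share. Right, single genes as a percentage of their own highest part, where Hist1h2ap and Hist1h1b are highest in part 3, Hist1h2bc, Hist3h2a, Hist2h2be (within the interval of part 3) and Cenpa in part 5, and Slbp and Ccne2 in part 2.

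H2A and H2B genes often start head to head and share the DNA between them, and 10 such pairs were found with 175 to 301 bases (median 246) between their starts. Both genes were tested in 7 pairs. In 5 of these the counting intervals of the log2 ratio between dividing and non-dividing early-anagen cells did not overlap. These intervals leave out the spread between cells. H2A and H2B genes outside such pairs were not compared, so the count says nothing particular to pairs. Hist2h2ac and Hist2h2be, 238 bases apart within the promoter sequence shown above, had unlike ratios. Hist2h2ac was 2.06 and 53.2 CPM (log2 4.69, 4.33 to 5.07), whereas Hist2h2be was 5.02 and 4.64 CPM (log2 -0.11, -0.46 to 0.23). Hist1h2ad (log2 7.52, 5.02 to 12.84, from 163 UMIs and 1 UMI) and Hist1h2bf (log2 0.74, 0.25 to 1.24), 184 bases apart, also had unlike ratios. Their counts are uncertain, since 64.4% and 50.8% of their 90-base windows are shared with other genes.

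Neighbouring genes also had unequal counts. Hist1h2ap had 43738 UMIs and its neighbour Hist1h2br 538 in early anagen, with log2 ratios of 8.08 and 6.39 (5.34 to 7.72); both counts are uncertain, since 92.4% and 86.3% of their windows are shared with other genes. Hist1h2ae had 17476 and Hist1h2bg 118, of which none was in non-dividing cells. With 3 counts set for that group, Hist1h2bg was 42.5-fold higher in dividing cells. The lower limit of its exact interval was log2 5.09. Hist1h2bc and Hist1h2ac were the reverse, with 2084 UMIs for the H2B gene and 233 for the H2A gene in early anagen and 2488 and 52 in the bulb.

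**Figure D4:**
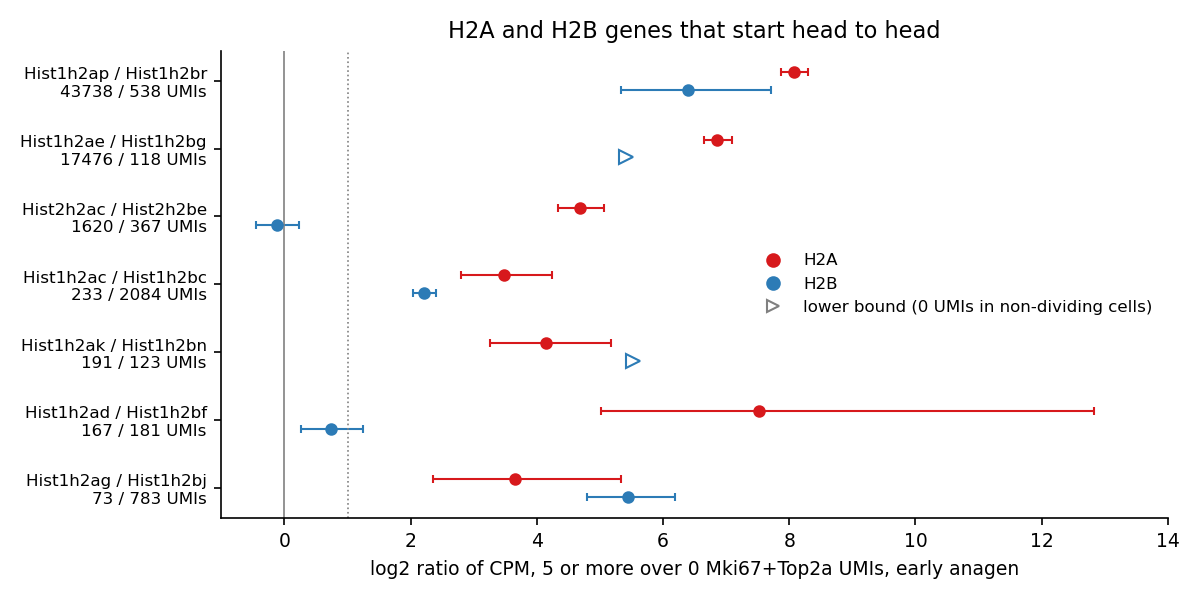
Log2 ratio of CPM between dividing and non-dividing early-anagen cells for the H2A (red) and H2B (blue) gene of the 7 head-to-head pairs with both genes tested, with UMI totals beside the names; bars are exact 95% counting intervals, open triangles are lower bounds for genes with 0 UMIs in non-dividing cells, and the dotted line marks a 2-fold difference. The Hist2h2ac point lies at 4.69 and the Hist2h2be point at -0.11.

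The 3′ kit primes cDNA on runs of A, so the ends of the annotated transcripts were compared with the counts. CPM values are not divided by transcript length here, and how well each mRNA is captured was not tested. A run of 8 or more A lay in the transcripts of 7 members, which held 58.7% of histone UMIs in early anagen and 32.8% in the bulb. The bulb share was mostly Hist1h2bc (2488 of 8424 UMIs). Its run begins 315 bases after the coding sequence, in a transcript without the stem-loop. In Hist1h2be, Hist1h2ac and Hist1h1d the run begins 851, 857 and 3119 bases after the coding sequence, beyond the stem-loop. The sequences around the run (GENCODE M21, GRCm38, run in capitals) are shown for the H2A genes with the most UMIs and for Hist1h2ao. The windows of Hist1h2ao are largely shared with Hist1h2ap, so that the run and the count of this pair cannot be set against each other.
Hist1h2ap: ccgaaaagAAAAAAAAAAAAggctcttt
Hist1h2ao: ccgaaaagAAAAAAAAAAAAggctcttt
Hist1h2ae: ctaatctcgtAAAAAAAAcaaaggctct
In Hist1h2ap and Hist1h2ao the run of 12 A began 27 bases after the coding sequence and met the stem-loop directly, and in Hist1h2ae the run of 8 A ended 4 bases before it. Hist1h2ab, which has no such run, had 3475 UMIs. Members with and without the run had similar median log2 ratios between dividing and non-dividing cells (4.53 for the 6 tested and 4.56 for the 40 tested). Capture that is equal in both groups cancels in such a ratio, so these medians cannot show whether the run affects the counts.

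The polyadenylation signal AATAAA lay within 50 bases of the annotated end of 12 members, which included Hist1h1c, Hist3h2a, Hist2h2be, Hist4h4 and Hist1h2ae. They held 55.8% of histone UMIs in the bulb, 18.6% in early anagen, and 22.7% in non-dividing early-anagen cells. The bulb share rested on Hist1h1c and Hist3h2a, which held 52.4%, while the other 10 held 3.45%, and Hist1h2bc, the leading member of the bulb, has no such signal there. Of the 7 tested in early anagen, 4 were more than 2-fold higher in dividing cells, with a median log2 ratio of 2.22. For the members without the signal this was 37 of 39, with a median of 4.64. Of all genes, 6.36% were more than 2-fold higher. Similarly, 23 members were annotated for more than 100 bases past the stem-loop and held 63.5% of bulb and 29.4% of early-anagen histone UMIs, again with Hist1h1c and Hist3h2a among them, whereas the 22 annotated for up to 100 bases held 5.29% and 54.2%.

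Genes that act on histone mRNA were higher in dividing cells in part. Of 15 tested genes of histone mRNA synthesis and 3′ processing, 5 were more than 2-fold higher in dividing early-anagen cells, against 6.36% of all genes, and none lower, against 2.83%. These were the cyclin E genes Ccne2 (log2 3.62, 3.21 to 4.05) and Ccne1 (log2 2.95, 2.72 to 3.19), the transcription factor E2f1 (log2 2.63, 2.45 to 2.81), Slbp (log2 1.57, 1.49 to 1.65) and the exonuclease Eri1 (log2 1.03, 0.92 to 1.14). Npat, the coactivator of histone genes, was 14.5 and 17.2 CPM (log2 0.24, 0.06 to 0.43), and Lsm10, of the U7 snRNP, was 30.2 and 27.6 CPM (log2 -0.13, -0.27 to 0.01). Across the 5 parts of the cycle Slbp was 171, 251, 230, 87.4 and 40.7 CPM, highest in part 2, and Ccne2 was 25.4, 52.0, 21.3, 1.44 and 0.53 CPM. In the bulb library, 10 of the 15 were more than 2-fold lower than in early anagen, against 34.5% of all genes, and 1 higher (Lsm10, log2 1.52), against 14.8%.

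Among 12 histone chaperones, 6 were more than 2-fold higher in dividing early-anagen cells, against 6.36% of all genes, and none lower. These were Asf1b (5.30 and 97.7 CPM, log2 4.20), the CAF-1 subunits Chaf1b (log2 2.76) and Chaf1a (log2 2.32), the Cenpa chaperone Hjurp (log2 2.34), the acetyltransferase Hat1 (log2 1.64) and Nasp (log2 1.27). Asf1a, the paralogue of Asf1b, was 41.9 and 61.4 CPM (log2 0.55), and Hira and Daxx, chaperones of H3 variant proteins, had log2 ratios of 0.26 and -0.05. In the bulb library 9 of the 12 were more than 2-fold lower than in early anagen, against 34.5% of all genes, and Asf1a was higher (log2 1.19).

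The replication-independent variants gave a mixed picture. Of 10 tested, 6 were more than 2-fold higher in dividing early-anagen cells, against 6.36% of all genes, and none lower, against 2.83%, namely the centromeric Cenpa (log2 4.75), H2afx (log2 3.11), H1fx (log2 2.90), H2afz (log2 2.16), H2afv (log2 1.23) and H1f0 (log2 1.004, 0.93 to 1.08). H3f3a and H3f3b, which encode the replication-independent H3, were 2041 and 1968 CPM (log2 -0.05) and 1596 and 2036 CPM (log2 0.35) in non-dividing and dividing cells. Each of these 2 genes alone thus exceeded the H3 members, which summed to 209 CPM in dividing cells, on this scale of UMIs without regard to capture. Between libraries 5 of 10 variants were lower in the bulb, against 34.5% of all genes, and 2 were higher, against 14.8%, counts near the background; the latter were H2afj (log2 1.77) and H1f0 (log2 1.11).

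Histone UMIs were spread less evenly over cells in early anagen than in the bulb. The 10% of cells with the largest share of histone UMIs in their own total, 279 cells, held 84.8% of histone UMIs in early anagen. Of these cells, 99.3% were dividing. In the bulb the corresponding 374 cells held 37.7%, and 7.22% of them were dividing. After thinning to 5000 UMIs, 52.0% of early-anagen cells (Clopper-Pearson 50.1% to 53.9%) and 43.7% of bulb cells (42.1% to 45.3%) had a histone UMI, compared with 86.8% and 75.7% before thinning. The Clopper-Pearson intervals treat the cells of a library as independent draws, rest on a single random thinning and leave out the spread between mice. The share of cells with a histone UMI was 39.7% in non-dividing and 76.7% in dividing early-anagen cells (79.6% and 98.0% unthinned). Free RNA in droplets can give single UMIs in cells that do not express a gene, and this was not tested for these shares.

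As a description over the 2785 early-anagen cells thinned to 5000 UMIs, the genes whose log-normalised UMIs correlated most with the histone sum, among 5485 genes with at least 20 CPM, were Top2a (Pearson r = 0.67), Pbk (0.63), Pclaf (0.62), Birc5 (0.61) and Prc1 (0.59). These cells share a library, and Top2a also served to define the classes.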

How the data were processed

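The authors aligned 10x Genomics 3′ reads to mm10 with Cell Ranger 6.0.1, and the deposited matrices hold raw UMI counts per gene and barcode. UMIs were summed over the selected cells and divided by the summed UMIs of these cells to give CPM, with exact Poisson intervals (95%). Ratios were called past 2-fold among genes with at least 50 UMIs over both groups, and a group at 0 was bounded with 3 counts over the group. Values were given for members with at least 10 CPM in either library, with the 3 richest in UMIs of each histone type in most detail; other genes came from lists of histone variants, chaperones, mRNA processing, replication and mitosis and from the 5 most alike genes. Symplk, of the processing list, was not matched. Members and lists were chosen with earlier results of these data known, and classes within both libraries were compared after seeing the data. Genes named outside that rule were chosen after their values were seen. Shares of cells were taken after thinning to 5000 UMIs. Shared 90-base windows were counted over all GENCODE M21 transcripts, whereas the authors counted on the mm10 reference package of 10x Genomics. Code was tested on simulated data. Python 3.11.15, numpy 2.4.6, scipy 1.17.1, pandas 2.3.3, matplotlib 3.10.9, R 4.3.3 and edgeR 4.0.16 (TMM scaling, an alternative only) were used.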

Additional observations from a re-analysis of the deposited data

Results flagged for a closer look

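Barcodes that the comparisons left out also held histone mRNA. In the early-anagen library the 8225 barcodes outside the selection had 954.4 CPM of histone UMIs (945 to 964), and 295 of them had 5 or more Mki67 and Top2a UMIs. The level was 1502 CPM in the 677 barcodes with at least 3 Krt10 and Krt14 UMIs that passed the UMI and mitochondrial limits, with or without Dct, 586 CPM in the 7241 under the UMI minimum and 840 CPM in the 305 left out for mitochondrial UMIs. In the bulb library the 593 barcodes outside the selection had 194.4 CPM (177 to 213), and 3 of them had 5 or more Mki67 and Top2a UMIs. These values stand out only because no comparison used these barcodes.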

How the results depend on the processing

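Totals are log2 ratios. For the bulb over early anagen (-3.27), the total was -3.21 with more than 5000 UMIs required in both libraries, -3.23 with a mitochondrial limit of 10%, -3.18 with no Krt10 or Krt14 UMI, -3.06 without the 5% of cells with the most UMIs, -2.79 with cells thinned to 5000 UMIs, -2.75 as the mean of each cell's CPM, -3.43 with a reduced total (no pigmentation, mitochondrial or ribosomal protein UMIs), -2.96 with TMM scaling and -2.57 without Hist1h2ap, the member with the most UMIs. It was 0.25 among cells without Mki67 and Top2a UMIs, the opposite direction, and -0.13 among cells with 5 to 19, 2 settings chosen after seeing the data. In the first of these H1 (1.39), H2A (0.63) and H3 (0.24) also changed direction, and in the second H1 (0.61), H2B (0.26), Hist1h1b (0.50) and Hist1h1e (0.49). The members more than 2-fold lower (43) were 21 with thinned cells, 18 with at least 10 CPM required, 12 among cells without Mki67 and Top2a UMIs and 6 with 5 to 19, where fewer members could be tested, and those higher (4) were 2 with at least 10 CPM. For dividing over non-dividing early-anagen cells (4.92), the total was 4.83 with more than 5000 UMIs, 5.12 with no Krt10 or Krt14 UMI, 4.72 without that limit, 4.79 with thinned cells, 4.82 as the mean of cells, 4.86 with the reduced total, 5.00 with TMM scaling, 4.21 without Hist1h2ap, 4.34 for at least 1 Mki67 and Top2a UMI, 5.45 for at least 20 and 4.83 with classes set on thinned cells. The members more than 2-fold higher (41) were 22 with thinned cells and 21 with at least 10 CPM, of 24 and 22 tested. In the bulb (1.90) the total was 1.71 without the 5% of cells with the most UMIs, 2.05 without the member with the most UMIs and 1.44 for at least 1 UMI, and the members higher (6) were 2 with thinned cells and 15 with a minimum of 10 UMIs, with 1 lower by the mean of cells. A minimum of 20 was not run in the bulb, where 3 cells reach it. The middle part stayed the highest for the histone total under all settings run. Of 753 values of types and genes under alternatives, 15 changed sign, in 9 of 58 results, among them Hist1h1c in the bulb (0.69) at -0.31 without the 5% of cells with the most UMIs. No paired analysis was possible because each condition has 1 library, and for the same reason no replicate could be left out. The causes were not tested. Depth limits the bulb, where 43 dividing cells gave 525 histone UMIs.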
